A study of Mus musculus with 12 samples.

Results

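Peaks of H3K36me2 lying deep inside long protein-coding genes were examined in somatosensory cortex of control and Nsd1 conditional knockout (cKO) mice. A peak was a member when its midpoint lay in a protein-coding gene body, more than 5 kb from every protein-coding gene start or end, and the longest such gene holding it was at least 200 kb. Of 231 control peaks 13 were members, and of 3491 cKO peaks 378 were, so the lists together gave 391 of 3722. The rule used gene positions alone and no peak value.

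Chromatin immunoprecipitation for H3K36me2 and its input were sequenced from mice aged 2.5 months, in 4 groups of 3 libraries. The knockouts had the genotype Nsd1Nex-cKO, and each control group held 2 libraries labelled Nsd1fl/+ and 1 labelled Nsd1fl/fl, so control chromatin also carried floxed alleles. Nex drives Cre in excitatory forebrain neurons after their last division, so interneurons, glia and vascular cells of the dissected cortex keep Nsd1. The authors deposited 1 peak list per genotype, no read depth and no values per library. No comparison below therefore has replicate error or a p-value, and intervals cover counting error over peaks treated as independent. A list of positions checks neither the tissue nor the deletion.

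NSD1 is 1 of several methyltransferases that place dimethyl groups on lysine 36 of histone H3. The mark covers broad domains between genes and in gene bodies, where SETD2 converts it to H3K36me3 in the wake of RNA polymerase II, and both marks are read by the PWWP domains of DNA methyltransferases. Very long genes are common among neuronal adhesion molecules, receptors and ion channels, and most of their length is intron. The annotation used here gave gene starts and ends without exons, so no member is called intronic or exonic.

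The rule keeps members more than 5 kb from the outer start of every protein-coding gene, so the RefSeq start windows that could overlap a member were those of internal starts and noncoding genes. Each window runs from 250 bases before a start to 50 after it, and 0 members overlapped one. Entries existed for 214 of the 289 genes holding a member, and the comparison covered the 13 control and 365 cKO members on chromosomes with entries. The median gap to the nearest window, which the rule itself lengthens, was 61.3 kb for control members and 88.2 kb for cKO members. In the cKO list 4 members came within 5 kb of a window, and 2 of these 4 lay near an internal start of their own gene. The 250 bases before those internal starts are shown because they are the regulatory sequences of host genes nearest to a member. CpG dinucleotides, the usual substrate of DNA methylation, are in capitals (RefSeq, GRCm38.p6, 5′ to 3′).
Rbfox3 internal start, chr11:118761042-118761291, minus strand: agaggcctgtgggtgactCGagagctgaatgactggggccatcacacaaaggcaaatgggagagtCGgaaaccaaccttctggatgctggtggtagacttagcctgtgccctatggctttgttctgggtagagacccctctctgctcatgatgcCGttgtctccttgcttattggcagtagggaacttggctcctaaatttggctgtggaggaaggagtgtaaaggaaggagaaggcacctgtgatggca
Mbd5 internal start, chr2:49245650-49245899, plus strand: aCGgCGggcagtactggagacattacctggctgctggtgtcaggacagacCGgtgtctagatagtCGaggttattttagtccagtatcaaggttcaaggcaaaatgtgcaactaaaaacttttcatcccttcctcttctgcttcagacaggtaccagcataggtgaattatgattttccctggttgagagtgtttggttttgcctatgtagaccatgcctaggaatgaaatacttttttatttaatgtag

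Rbfox3 encodes the neuronal splicing regulator NeuN, and its member (118762525 to 118762784, fold 2.76, −log10 q 0) ended 1234 bp from that window. Mbd5 encodes a protein of the methyl-CpG-binding domain family, and its member (49248290 to 49248470, fold 2.94, −log10 q 0.468) lay 2341 bp away. The Rbfox3 sequence held 3 CpG and the Mbd5 sequence 4, against a median of 6 over the same 250 bases of all 32851 windows. Of those windows 71.0% held at least 3 and 62.2% at least 4. MicroRNA hairpins were farther away still, the nearest being Mir701 at 11.5 kb from a control member in Ttc28.

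Long-gene interiors held fewer peaks per megabase than any other class of sequence in both genotypes. They made up 407 Mb, or 15.1% of the sequence considered, but held 5.63% of control peaks (Wilson 95% interval 3.32 to 9.39) and 10.8% of cKO peaks (9.84 to 11.9). In the cKO list this was 0.928 members per Mb (exact Poisson 95% interval 0.837 to 1.03), against 1.54 (1.43 to 1.66) inside shorter genes. Sequence within 5 kb of a gene boundary held 1.73 (1.59 to 1.88) cKO peaks per Mb, and sequence outside genes 1.22 (1.17 to 1.28). The cKO density in long-gene interiors was thus 0.601 times that in shorter genes (exact 95% interval 0.529 to 0.682).

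In the control list the same interiors held 0.0319 members per Mb (0.0170 to 0.0546), against 0.116 (0.0868 to 0.152) inside shorter genes, a ratio of 0.275 (0.137 to 0.512). Of the 52 control peaks inside shorter genes, 24 lay outside dense regions, where a dense region means that 3 or more further peaks, from whichever list, stood within 100 kb. Without dense regions the control ratio was 0.412 (0.169 to 0.918) and the cKO ratio 0.630 (0.552 to 0.717). With peaks of a list that stood under 5 kb apart joined, the control ratio was 0.461 (0.221 to 0.906) and the cKO ratio 0.624 (0.548 to 0.710). Peaks in dense regions made up 4 of 13 control members against 49.8% of the control list, and 14 of 378 cKO members against 8.25% of the cKO list.

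**Figure D1:**
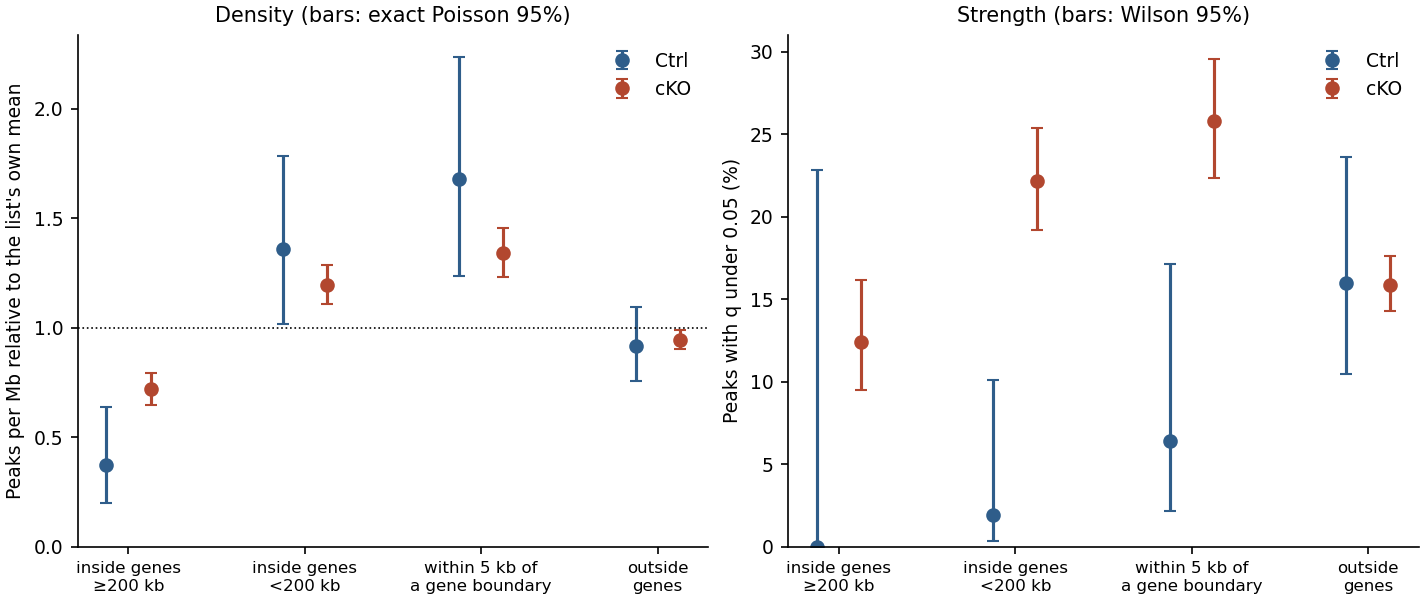
Left, peaks per Mb in 4 classes of sequence, divided by each list's own mean density (dotted line at 1), with exact Poisson 95% intervals. Right, percentage of peaks with a q-value under 0.05, with Wilson 95% intervals. The interiors of genes of 200 kb or longer lie lowest in density in both lists, and the cKO members reach that q-value less often (12.4%) than cKO peaks inside shorter genes (22.1%).

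Members took a larger part of the cKO list than of the control list. The cKO list held 29.1 times as many members as the control list (exact 95% interval 16.8 to 55.1), against 13.3 times as many peaks inside shorter genes (10.02 to 17.97) and 15.1 times as many peaks overall. The odds of a cKO peak being a member were 2.04 times those of a control peak (1.15 to 3.92). Without peaks in dense regions the odds ratio was 1.52 (0.765 to 3.45), an interval that includes 1. Without 3 genes in such regions (Gm7592, Zfp993 and Zfp978) it was 2.82 (1.44 to 6.30). Leaving out these genes took control members from 13 to 9 but kept all 218 other control peaks. The second odds ratio therefore rises through the choice of genes and is no check on the excess of members. Both alternatives were chosen after seeing the data. Read depth was unknown, and its part in these ratios was not tested.

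Peak density was lower in longer genes, also among the long genes. In the cKO list it was 1.20 members per Mb (0.997 to 1.44) in genes of 200 to 300 kb and 1.097 (0.919 to 1.30) in genes of 300 to 500 kb. It was 0.653 (0.510 to 0.824) in genes of 500 to 1000 kb and 0.700 (0.528 to 0.912) in the 59 genes of at least 1000 kb. Interiors of genes under 50 kb held 1.92 cKO peaks per Mb (1.68 to 2.18), those of 150 to 200 kb held 1.08 (0.858 to 1.35), and so the threshold of 200 kb did not mark a step. The 13 control members, 3, 4, 5 and 1 in the 4 classes of long genes, were too few to order the classes.

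**Figure D2:**
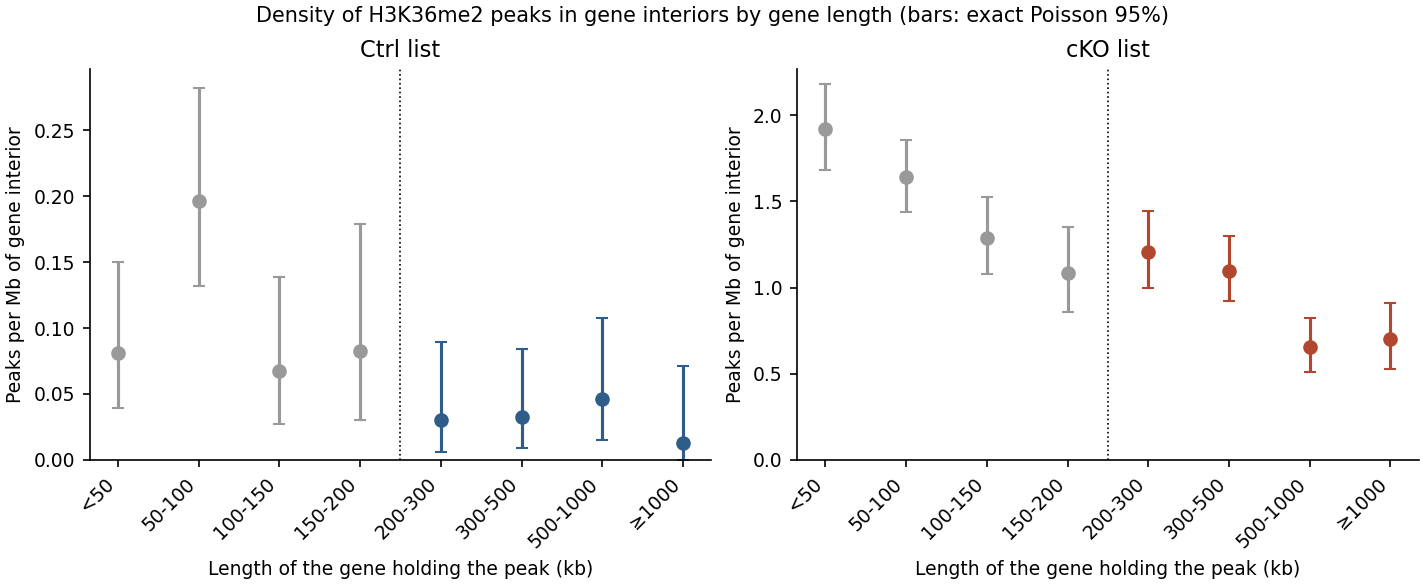
Peaks per Mb of gene interior, more than 5 kb from any protein-coding gene boundary, by the length of the gene; points carry exact Poisson 95% intervals, coloured points are genes of 200 kb or longer, and the panels have different scales. The cKO values run from 1.92 in genes under 50 kb to 0.653 in genes of 500 to 1000 kb. In controls the interval of genes of 50 to 100 kb (0.132 to 0.282) lies above those of every class of long genes. Without dense regions the control value of that class was 0.0339 (0.0110 to 0.0790). The remaining control intervals overlap.

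The intervals of cKO member density overlapped along the relative length of the genes, but not at every distance from a gene boundary. Measured from the nearer end as a percentage of gene length, cKO density was 0.788 members per Mb (0.599 to 1.02) in the outermost 10%, 1.09 (0.878 to 1.34) between 20% and 30%, and 0.899 (0.707 to 1.13) in the innermost part, from 40% to 50%. By distance from the nearest protein-coding gene boundary the cKO density was 1.20 (0.856 to 1.63) between 5 and 20 kb, 0.955 (0.729 to 1.23) between 20 and 50 kb and 0.944 (0.763 to 1.16) between 50 and 100 kb. It was 1.07 (0.888 to 1.28) between 100 and 200 kb and 0.632 (0.483 to 0.812) beyond 200 kb. The interval beyond 200 kb lay below those between 5 and 20 kb and between 100 and 200 kb. Distances beyond 200 kb exist only in the longer of these genes. In controls 3 of 13 members, all in Gm7592, stood between 5 and 20 kb from a boundary, 0.0899 per Mb (0.0185 to 0.263), and 2 stood beyond 200 kb, 0.0207 per Mb (0.00251 to 0.0748). Strand was known for 74.0% of the genes holding a member, too few to orient positions from the start of the gene.

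The cKO members were weaker calls than cKO peaks inside shorter genes by q-value, whereas their fold enrichment was similar. Fold enrichment is the authors' deposited ratio for each peak, with a denominator not given in the sources used here. Its median was 2.83 in cKO members (95% interval 2.81 to 2.87, range 1.46 to 5.51, quartiles 2.73 and 3.01) and 2.84 (2.81 to 2.87) in cKO peaks inside shorter genes. A q-value under 0.05, which 18.4% of all cKO peaks had, was carried by 47 of 378 members (12.4%, 9.48 to 16.1) and by 153 of 691 peaks inside shorter genes (22.1%, 19.2 to 25.4). Without peaks in dense regions the shares were 11.8% (8.89 to 15.5) and 21.6% (18.6 to 24.9). A −log10 q of at least 2 was reached by 26 members, 6.88% (4.74 to 9.89), against 10.7% of the cKO list. A q-value of at least 0.5 was found for 237 members (62.7%), against 50.1% of the cKO list and 43.3% of cKO peaks inside shorter genes. A −log10 q of 0 was listed for 70 members (18.5%), against 12.7% of the cKO list. The low share with a q-value under 0.05 was not limited to genes above the threshold, since interiors of genes of 150 to 200 kb had 6.33% (2.73 to 13.97). It was 15.3% (9.87 to 22.8) in genes of 200 to 300 kb and 10.9% (5.10 to 21.8) in those of at least 1000 kb.

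Control members included 0 with a q-value under 0.05, against 9.96% of the control list, and 0 with a −log10 q of at least 2, against 8.66%. With 13 members a share of up to 22.8% lies within the Wilson interval. Their folds had a median of 2.44 (2.10 to 3.38, range 1.94 to 3.98), above the 1.93 (1.61 to 2.24) of control peaks inside shorter genes, with intervals that overlapped. Outside dense regions the medians were 2.93 and 2.47. Control members were narrow, with a median width of 186 bp (155 to 253) and 0 of 500 bp or more, against 20.3% of the control list. The cKO members had a median width of 239 bp (223 to 259), and 28 (7.41%) reached 500 bp, near the 8.22% of the cKO list. The lowest width in either list, 147 bp, was found in 2 control members, against 6.06% of the control list, and in 57 cKO members (15.1%), against 13.1% of the cKO list.

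The cKO member of highest −log10 q lay in Tmem135, which encodes a membrane protein of mitochondria and peroxisomes (chromosome 7, 89273854 to 89274040, fold 4.52, −log10 q 8.74). A further member stood 7.22 kb away in the same gene (89266429 to 89266631, fold 3.88, −log10 q 1.67). Both stood near the middle of this gene of 265 kb, 127 and 130 kb from its nearer end. The nearest control peak to the stronger was 29484 kb away. The median such gap was 5342 kb over all cKO peaks with a control peak on their chromosome. Rarb, the retinoic acid receptor beta gene, held the member of highest fold (chromosome 14, 16971272 to 16971424, fold 5.51, −log10 q 5.95), at 17.0% of the gene's length from its nearer end. Dnah5, which encodes an axonemal dynein of motile cilia, held the next by −log10 q (chromosome 15, 28430403 to 28430549, fold 4.05, −log10 q 5.44). All 4 of these peaks were 147 to 203 bp wide. None of them overlapped a control peak, but only 2.81% of all cKO peaks did.

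Among neuronal genes in the 10 highest folds, Gabrb1, which encodes the beta 1 subunit of the GABA-A receptor, had a member at fold 4.02 (chromosome 5, 72021736 to 72021884, −log10 q 1.78). Dner, a Notch-pathway membrane protein gene of neurons, had 1 at fold 3.91 (chromosome 1, 84595522 to 84595675, −log10 q 1.48). Sorcs2, a neuronal sorting receptor gene, had 1 at fold 3.86 (chromosome 5, 36272319 to 36272465, −log10 q 2.80). The others were St18, a zinc finger transcription factor gene of the oligodendrocyte lineage (fold 4.37), Dym, a Golgi protein gene (chromosome 18, 75066326 to 75066472, fold 4.07, −log10 q 2.74), and Tmem117 (chromosome 15, 94757739 to 94758111, fold 3.83). Every one of these 10 had a q-value under 0.05, a feature of 12.4% of cKO members. Fold and q-value belong to the same peak calls, so this share is not independent of the choice by fold.

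High significance and high fold did not always coincide. Eif4g3, a translation initiation scaffold gene, combined a fold of 2.95 with a −log10 q of 5.07 (chromosome 4, 138121901 to 138122081). Mdga2, whose membrane-anchored product binds neuroligins at synapses, held the cKO member of lowest fold, 1.46, whose −log10 q was nevertheless 5.00 (chromosome 12, 67059349 to 67059545). Dlgap2, a postsynaptic scaffold gene, came next by −log10 q at 4.92, with a fold of 1.67 (chromosome 8, 14306825 to 14307352). The widest members were weak calls. They lay in Tafa4, which encodes a secreted peptide of neurons (chromosome 6, 96876779 to 96877502, 724 bp), and in the zinc finger gene Hivep3 (chromosome 4, 119951152 to 119951846, 695 bp). The next were in Wwox (654 bp), Fars2 (628 bp) and the neurexin-family gene Cntnap2 (619 bp), and the 5 had −log10 q values of 0.0109 to 0.803.

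In controls the member of highest fold lay in Nckap5 (chromosome 1, 126091961 to 126092115, fold 3.98), followed by Ttc28 (chromosome 5, 111015728 to 111015874, fold 3.58) and A830018L16Rik (chromosome 1, 11729433 to 11729579, fold 3.38). Agbl4, which encodes a carboxypeptidase that trims glutamates from tubulin tails, had a member at fold 3.24 (chromosome 4, 111244945 to 111245130), and the mitochondrial enzyme gene Pcca 1 at 2.93 (chromosome 14, 122776708 to 122776872). Fgf13, whose product modulates neuronal sodium channels, had 1 at 2.16 on the X chromosome (59466224 to 59466384). Of these 6 the highest −log10 q was 0.505, in Nckap5. The highest −log10 q of a control member, 0.941, belonged to the predicted gene Gm7592 (chromosome 1, 85332128 to 85332380, fold 2.63), which held 3 of the 13.

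Few members were shared between the genotypes. At least 1 bp of the other list was overlapped by 4 of 13 control members (30.8%, 12.7 to 57.6), against 42.4% of the control list, and by 4 of 378 cKO members (1.06%, 0.412 to 2.69), against 2.81% of the cKO list. Macf1, which encodes a crosslinker of microtubules and actin, held a shared peak called at fold 2.18 and a −log10 q of 0 in controls (chromosome 4, 123540823 to 123541045). The cKO call there had a fold of 2.50 and a −log10 q of 2.04 (123540819 to 123541054), the only shared cKO member with a q-value under 0.05. The synaptic adhesion gene Cadm2 had folds of 2.10 in controls (chromosome 16, 66961225 to 66961441) and 2.11 in cKO, with −log10 q values of 0 and 0.104. The zinc finger gene Zfp993 had folds of 2.31 and 2.46 (chromosome 4, 146602412 to 146602682 in controls) and Gm7592 had 1.94 and 2.17 (chromosome 1, 85503973 to 85504299 in controls).

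The other 9 control members had their nearest cKO peak between 5.18 kb (Gm7592) and 1910 kb (Nckap5) away, and the median gap over all 13 was 167.6 kb, against 1.49 kb for all control peaks. From cKO members the median gap to a control peak was 5500 kb, close to the 5342 kb of all cKO peaks, with 12 members and 142 peaks left out because their chromosome had no control peak. A830018L16Rik held members of both lists without overlap, 177 kb apart. In all 6 genes held members of both lists, of 11 with a control member and 284 with a cKO member.

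Of the 990 protein-coding genes of 200 kb or longer, 28.7% held a cKO member and 1.11% a control member. A cKO member with a q-value under 0.05 was found in 41 of the 284 genes with a cKO member. By peak, 12.4% of cKO members had such a q-value, against 18.4% of the cKO list. The share with a cKO member was higher in longer genes, which offer more sequence, from 20.6% of genes of 200 to 300 kb (17.0 to 24.6) to 57.6% of those of at least 1000 kb (44.9 to 69.4). A single cKO member was held by 216 genes, 2 by 53 genes, and 3 or more by 15 genes. Among the 15 were Gm7592 with 8, Rbms3 and Zfp993 with 5 each, and Gpc5 with 4.

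Rbms3, an RNA-binding protein gene of 1057 kb, had members at folds of 2.81 to 3.38, of which 2 lay 2.89 kb apart (chromosome 9, 117485943 to 117486309 and 117489197 to 117489440). Gpc5, a glypican gene, had folds of 2.50 to 3.10. Rbfox3 had 3 members at folds of 2.73 to 3.41, and the brain adenylate kinase gene Ak5, which is just over the length threshold at 206 kb, had 3 at 2.73 to 3.13.

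Genes with 3 members also included the cell polarity gene Fry (folds 2.82 to 2.97), the GTPase regulator gene Rabgap1l (1.97 to 2.71), Spata16, named for its role in spermatogenesis (1.73 to 2.88), Ccdc171 (2.36 to 2.71), Tafa4 (2.53 to 3.19) and the zinc finger genes Zfp469 (2.76 to 2.96) and Zfp978 (2.22 to 2.67). Members of these 7 genes had −log10 q values of at most 0.736 except 1 in Tafa4, at 1.88. Gm7592, Zfp993 and Zfp978 held 4 control and 16 cKO members, among them every member that lay in a dense region (4 control and 14 cKO). Near-identical gene copies can share reads, and the placement of reads with several matches by the authors is not stated in the labels. Without these 3 genes, an exclusion that removed almost only members, members were 3.96% of the control list and 10.4% of the cKO list.

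**Figure D3:**
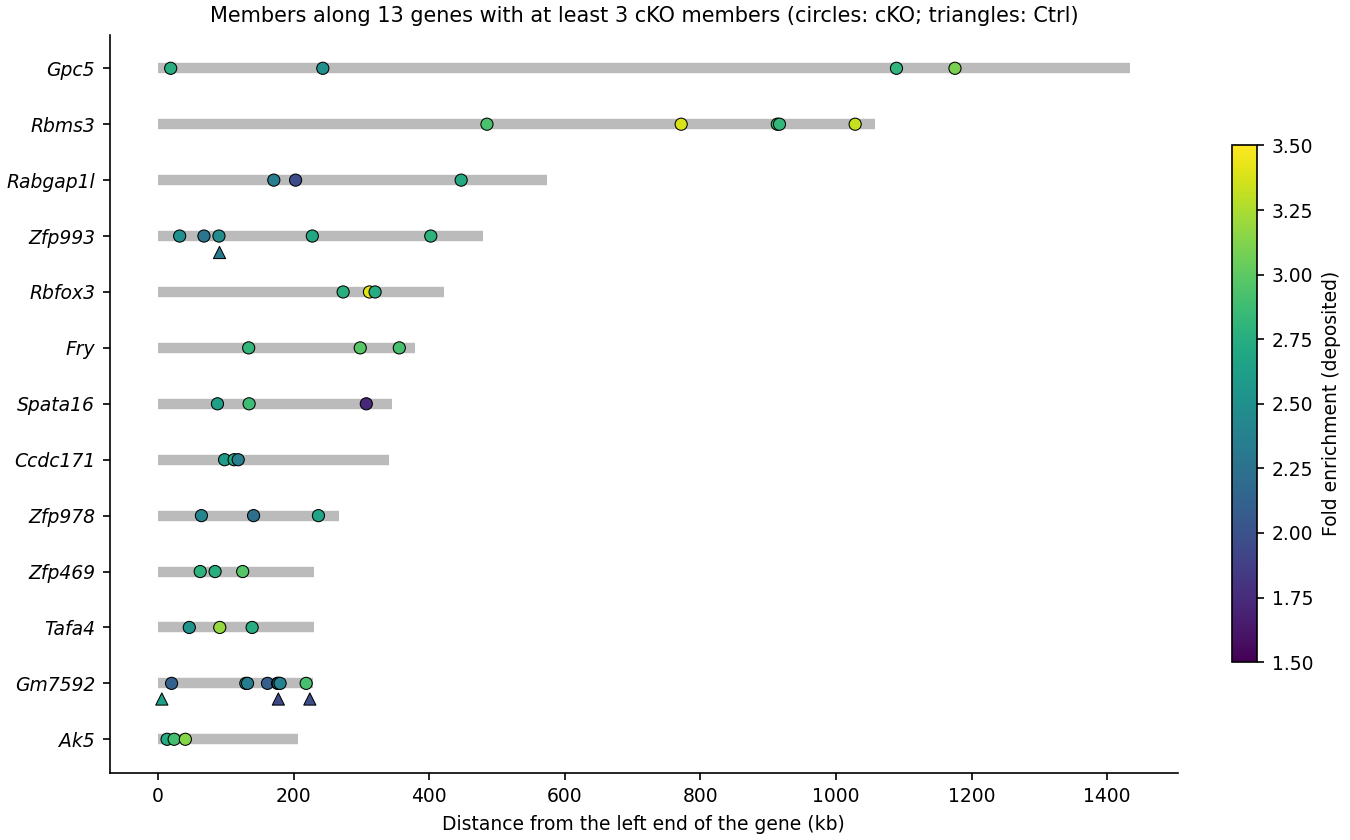
Of the 15 genes of 200 kb or longer with at least 3 cKO members, 13 are drawn to scale from the left end of each gene (kb); circles are cKO members and triangles control members, coloured by the authors' fold enrichment. Members in Gpc5 lie toward both ends of the gene, at 1.29% to 24.0% of its length from the nearer end. Those in Ccdc171 stand close together, and control members occur in Gm7592 and Zfp993.

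Long genes were grouped into 12 lists by function or cell type, which were written with earlier results of these data known. The lists held 308 distinct long genes, of which 92 had a cKO member, and the remaining 192 genes with a cKO member were in no list. Counts are set beside 28.7% of all long genes. Densities are set beside the value that the length classes of the listed genes would give, since longer genes had lower densities. Each ratio of members to that value had an exact Poisson interval that included 1. The length-class densities include the listed genes themselves, which draws the ratios toward 1. The intervals leave out error in those densities.

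Among synaptic adhesion, scaffold and IgLON genes 20 of 51 held a cKO member (39.2%), and their density was 0.618 members per Mb (0.417 to 0.883), against 0.713 from their length classes. Ctnna3, an alpha-catenin gene, led by fold (3.63, −log10 q 1.01), followed by the neurexin-family gene Cntnap5a (3.43), the contactin gene Cntn4 (3.24) and Lrfn5 (3.21), with 2 members each. Among neurotransmitter receptor genes 6 of 24 did, among them Gabrb1 (4.02) and the kainate receptor gene Grik1 (2.97). Among cation channel genes 7 of 32 did (21.9%), at 0.570 members per Mb (0.261 to 1.08) against 0.871 from length. These were led by the sodium leak channel gene Nalcn (3.26), the potassium channel-interacting protein gene Kcnip4 (3.16), the L-type calcium channel gene Cacna1c (3.13) and the potassium channel partner gene Dpp6 (3.00).

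Axon guidance genes had 8 of 23 with a cKO member (34.8%), led by Slit3 (3.40), the netrin receptor gene Unc5d (3.30), the plexin gene Plxna4 (2.95) and the Slit receptor gene Robo1 (2.81). By density they were not above their length classes, with 10 members where length gave 11.6. Cadherin and protocadherin genes had 2 of 13 (15.4%), Cdh12 (2.84) and Cdh13 (2.73), with 3 members where length gave 6.88. Transcription factor and nuclear receptor genes had 13 of 52, and after Rarb and St18 the highest were the zinc finger genes Zfp536 (3.60) and Zfp521 (3.31). Cyclic nucleotide, calcium and kinase signalling genes had 13 of 52, led by the phosphodiesterase gene Pde3a (3.51), the kinase gene Stk32b (3.16), the phosphodiesterase gene Pde4b (3.11) and the kinase gene Tnik (3.10).

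Dystrophin complex, cytoskeleton and matrix genes had 10 of 34 (29.4%), with 13 members where length gave 15.4. After Dnah5 came Dmd, the dystrophin gene, at 3.34 and the collagen genes Col24a1 at 3.07 and Col25a1 at 3.00. The large genes known as common fragile sites had the highest share, 15 of 23 (65.2%, Wilson 44.9 to 81.2), and are also among the longest. Their 25 members compare with 21.6 from length, a ratio of 1.16 (0.748 to 1.71). Lrp1b, a lipoprotein receptor-related gene of this list, held a member with a −log10 q of 2.41 at fold 3.34 (chromosome 2, 40863308 to 40863456). Astrocyte, oligodendrocyte and microglial genes had 4 of 12 (33.3%), St18, Gpc5, the bicarbonate transporter gene Slc4a4 (2.88) and Gpc6 (2.81). This list held 7 members where length gave 6.33. Cortical excitatory layer genes had 5 of 14 (35.7%), with Il1rapl2 at 3.02, Foxp1 at 2.89 and Thsd7b at 2.82 after Unc5d. Their 6 members compare with 6.65 from length. Inhibitory interneuron genes had 3 of 8 (37.5%), Grip1 (3.19), Grik1 and Kcnmb2 (2.81), with 3 members where length gave 3.46. Control members fell in 4 listed genes, Cadm2, Nckap5, Fgf13 and Macf1.

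**Figure D4:**
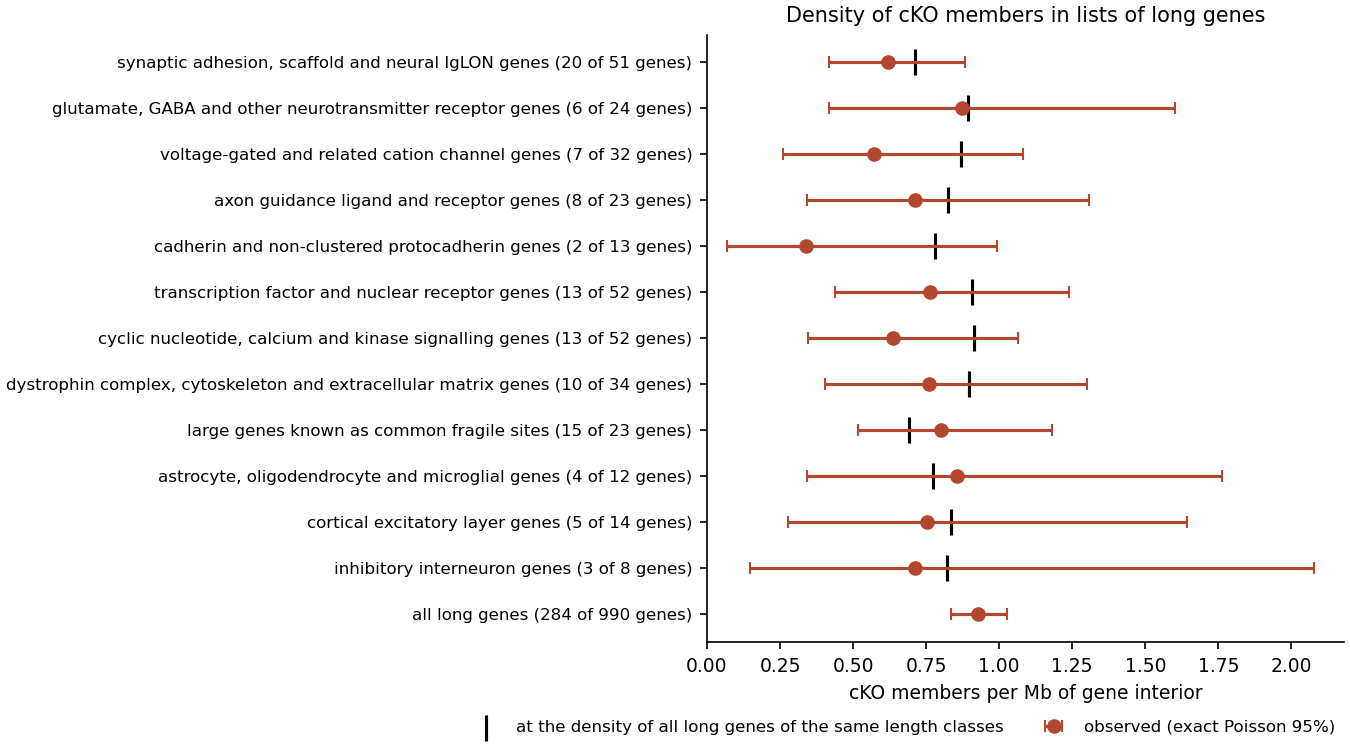
cKO members per Mb of gene interior in 12 lists of long genes and in all 990 long genes, with exact Poisson 95% intervals; black ticks mark the value given by the length classes of the listed genes. Each interval includes its tick, and cadherin genes (3 members) and cation channel genes (9 members) lie farthest below theirs.

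By autosome, cKO members ran from 0.602 per Mb of long-gene interior on chromosome 2 (0.357 to 0.951) to 1.39 on chromosome 4 (0.949 to 1.96), which carries Zfp993 and Zfp978. The X chromosome had 10 cKO members, 0.515 per Mb (0.247 to 0.948), 0.543 times the density of autosomes, with an interval of 0.258 to 1.01 that includes 1. They lay in 8 genes that include Dmd and the ectodysplasin gene Eda, with 2 members each. The Y chromosome had no long-gene interior. Of the 13 control members 6 were on chromosome 1 and 3 on chromosome 4.

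Peaks next to the length threshold are given for both sides. The cKO members in the shortest genes lay in Pcbp3 (200.3 kb, fold 2.81), Dnah12 (201 kb, fold 2.80) and Dysf (203 kb, fold 2.80). Just below the threshold were cKO peaks in Morc1 (199.7 kb, fold 2.31), Svil (199 kb, fold 2.75) and Sipa1l3 (199 kb, fold 2.74). In controls the shortest long gene with members was Gm7592 at 229 kb, and just below the threshold were peaks in Atp9b (199.9 kb, fold 2.46), the sodium channel gene Scn1a (170 kb, fold 2.58) and Gm38510 (154 kb, fold 1.99).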

How the data were processed

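Cutadapt, Bowtie2 2.4.4, MACS2 and mm10 were named without roles or settings, per the submitters' processing notes. Each of 2 deposited lists, named in the labels of all 6 libraries of a genotype, gives per peak a deposited fold enrichment (a ratio) and a deposited −log10 q, which were used as the authors wrote them. For filters, duplicate removal and peak calling settings the entry is: not given in the sources used here. Depth was unknown.

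Peak midpoints were placed on 21887 protein-coding genes of RefSeq GRCm38.p6, whose coordinates mm10 shares, and positions are 1-based. Densities used the bases of each class within the part of each chromosome spanned by annotated genes and peaks. Intervals were Wilson (shares), exact Poisson (densities), exact conditional (ratios) and order-statistic (medians), at 95%. The members, gene lists and naming rule (every control member; in cKO the 10 highest folds, 5 highest −log10 q, 5 widest, shared members, genes with 3 or more, up to 4 per list, and threshold neighbours) were chosen with earlier results of these data known. Mbd5, Dlgap2, Eda and the genes under other observations were named after their values were seen. Class assignment was tested on simulated positions. Ratio intervals were tested on simulated independent counts, at densities near those of the cKO list and above those of the control list. Clustering of peaks was not simulated, so the intervals were not tested for dense regions. Python 3.11.15, pandas 2.3.3 and scipy 1.17.1 were used. Some genes that this rule names, 1 control member among them, are not reported here by name but remain in the counts.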

Additional observations from a re-analysis of the deposited data

How the results depend on the processing

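No paired analysis was possible because the deposited lists, 1 a genotype, hold no values per replicate, which also left no replicate to leave out, and depth per library was unknown. Of 94 values recomputed for 14 results, 84 stayed within their interval or within 1.5 times the count. These covered autosomes alone, thresholds of 150 and 300 kb, 1000 bp from boundaries, joined peaks, peaks outside dense regions, whole peaks and 50% overlap. Joining peaks moved the control ratio to shorter genes to 0.461. The other 10 came from a −log10 q of at least 2. Control members and their genes were then 0, as were both control density ratios. The intervals of these ratios, 0 to 42.8 against shorter genes and 0 to 1.14 against all other sequence, include 1. cKO members were 26 in 25 genes, with a density 0.321 times that of shorter genes and 0.421 times that of all other sequence, a median fold of 2.96 and 0% shared. Without members the control fold and shared percentage could not be given.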

Other observations

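Members standing close together in a gene, chosen after their values were seen, included a pair in Snrpn, the imprinted gene of the Prader-Willi region, within the noncoding RNA gene Snhg14. The first (chromosome 7, 60016888 to 60017169) had a fold of 3.31 and a −log10 q of 3.12, and the second (60018718 to 60018954), 1.55 kb away, a fold of 3.01 and a −log10 q of 1.53. Usp29, an imprinted gene of the same chromosome, held a cKO member of 590 bp with a fold of 2.78 and a −log10 q of 0 (6851393 to 6851982). The Dysf pair lay 5.88 kb apart, with −log10 q values of 0 (84060150 to 84060686 of chromosome 6) and 1.43.

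Noncoding RNA genes or pseudogenes were annotated at the midpoint of 21 cKO members (5.56%, 3.66 to 8.34), against 10.7% of the cKO list and 4.20% of cKO peaks inside shorter genes. They were annotated at 3 of 13 control members (23.1%, 8.18 to 50.3), against 14.3% of the control list and 1.92% of control peaks inside shorter genes. Of these 3, the members in Gm7592 and Zfp993 lay in dense regions. Both cKO members of Dscam, a neuronal adhesion gene (chromosome 16, 96723329 to 96723475 and 96751859 to 96752005), lay within Gm32509, with folds of 2.91 and 3.06.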
